A study of Mus musculus with 4 samples.

Results

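The 8 SMAD genes and the SMAD corepressor genes Skil (encoding SnoN) and Ski were followed in mouse gastric organoids, which are stomach epithelial cells grown in a gel. These 10 genes were taken by their symbols from the 45777 genes in the files. All 10 were found, 9 of them entered the test of 18115 genes, and Smad9 had no count in any library. The control group was organoids with Cdh1 and Trp53 knocked out, and the Smad4 Knockout group was organoids with Cdh1, Trp53 and Smad4 knocked out, so every library carries the Cdh1 and Trp53 knockouts. Each group held 2 libraries of total RNA, from lines named CPE and CPG (Control 1 and Control 2) and CPS1 and CPS4 (Smad4 Knockout 1 and Smad4 Knockout 2). All cells had been kept for 2 days in medium with B27 and N2 and without serum or L-WRN conditioned medium. The labels give no animal, mouse strain, age or edited exon, and do not say how the lines were derived from each other. So p-values reflect only how these libraries spread, which may be the spread between clones or cultures of the same source.

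SMAD proteins carry the signals of the TGF-beta family from the cell surface to the nucleus. Ligands of the TGF-beta and activin type act through the receptor-regulated proteins Smad2 and Smad3, and those of the BMP type through Smad1, Smad5 and Smad9. Once phosphorylated by a receptor, these proteins join Smad4, the partner shared by both branches, and bind DNA with other factors. Smad6 and Smad7 inhibit the pathway, and their genes are themselves switched on by it, as is Skil. SnoN and Ski bind SMAD complexes and hold back transcription of their target genes. Loss of SMAD4 is a known event in cancers of the stomach, pancreas and colon.

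Total counts ranged from 85649781 to 99845702 per library, and the counts of the 9 tested genes from 771 to 22703. Control 2 and Smad4 Knockout 1 were the most alike libraries (root mean square log2 difference of 0.238 over 10803 genes), while the controls differed from each other by 0.292 and the knockouts by 0.285, so the libraries did not fall into their genotypes. Smad4 Knockout 2 stood farthest from both controls (0.352 and 0.407). Its share of mitochondrial counts was 1.48%, against 0.941% to 1.18% in the other libraries. Of 16 gastric epithelial markers, 11 had a TPM of at least 1 in every library, and Krt8 was the highest of them. The stomach markers Cldn18 (142 to 155 TPM) and Sox2 (19.2 to 24.4 TPM) were present, the pit cell mucin Muc5ac was at 0.347 TPM or less, and the chief cell gene Cblif had no count. Both knockouts were above both controls in TPM for 5 of the 16 (Krt8, Krt19 and 3 genes of secreted stomach mucosal peptides). Both were below both controls for 1, the gland mucin Muc6 at 0.0263 TPM or less. Among all tested genes, 23.2% were higher and 14.1% lower without overlap on TPM, so these counts are no result about the markers. The secreted peptide genes were Tff1 (80.3 and 55.5 versus 113 and 204 TPM), Tff2 (48.7 and 37.4 versus 113 and 65.0 TPM) and Gkn1 (3.75 and 3.45 versus 8.20 and 26.0 TPM). DESeq2 called these 3 higher (adjusted p = 0.0219, 0.0352 and 0.00165) and edgeR did not (adjusted p = 0.677 for each); their part in the values of the SMAD genes was not tested. TPM is the deposited length-scaled level. Summed TPM was 0.291 to 1.04 over 8 fibroblast markers, with Lum and Pdgfrb at 0, 0.884 to 1.59 over 4 endothelial markers, and 0.172 to 0.806 over 3 smooth muscle markers, with Des at 0. It was 4.52 to 5.19 over 5 immune markers, nearly all of it from Cd68, with Cd3e at 0.

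In RefSeq on GRCm38 (the build also called mm10), Smad4 (gene ID 17128) spans bases 73634790 to 73703791 of chromosome 18, Smad7 (17131) bases 75367365 to 75395935 and Smad2 (17126) bases 76241090 to 76311748 of the same chromosome. Smad3 (17127) lies at bases 63646766 to 63757994 and Smad6 (17130) at bases 63953076 to 64022085 of chromosome 9. Smad1 (17125) is on chromosome 8 (79338395 to 79399428), Smad5 (17129) on chromosome 13 (56703010 to 56742378), Smad9 (55994) and Skil (20482) on chromosome 3 (54755455 to 54801662 and 31095058 to 31122923), and Ski (20481) on chromosome 4 (155154075 to 155222535). Counts cover each gene as a whole.

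The 10 genes differed widely in level. Skil was the highest with a mean of 53.9 ± 8.61 TPM (SD, n = 4 libraries), followed by Smad3 at 45.2 ± 7.63 TPM (SD, n = 4). The ranges of these 2 genes overlapped, although Skil was above Smad3 in 4 of 4 libraries. Smad2 (20.6 ± 0.954 TPM), Smad5 (19.0 ± 2.85 TPM), Smad4 (16.9 ± 5.53 TPM) and Smad1 (13.3 ± 1.24 TPM) formed a middle group, each with a range that overlapped that of the next. These SDs and ranges pool both genotypes, and for Smad4 they include the genotype difference. Its controls were at 21.5 ± 2.30 TPM and its knockouts at 12.2 ± 0.712 TPM (SD, n = 2 each). Ski stood at 10.9 ± 1.43 TPM, and its range overlapped that of Smad1. The lowest detected genes were the inhibitors, Smad7 at 6.20 ± 1.40 TPM and Smad6 at 5.11 ± 0.341 TPM. Smad9, the BMP-branch gene, had 0 counts in every library, for which the upper limit is 3 counts, or 0.0350 CPM (library-scaled counts, defined with Smad4) in the shallowest library. Of the BMP branch, Smad1 and Smad5 were thus the detected members.

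**Figure D1:**
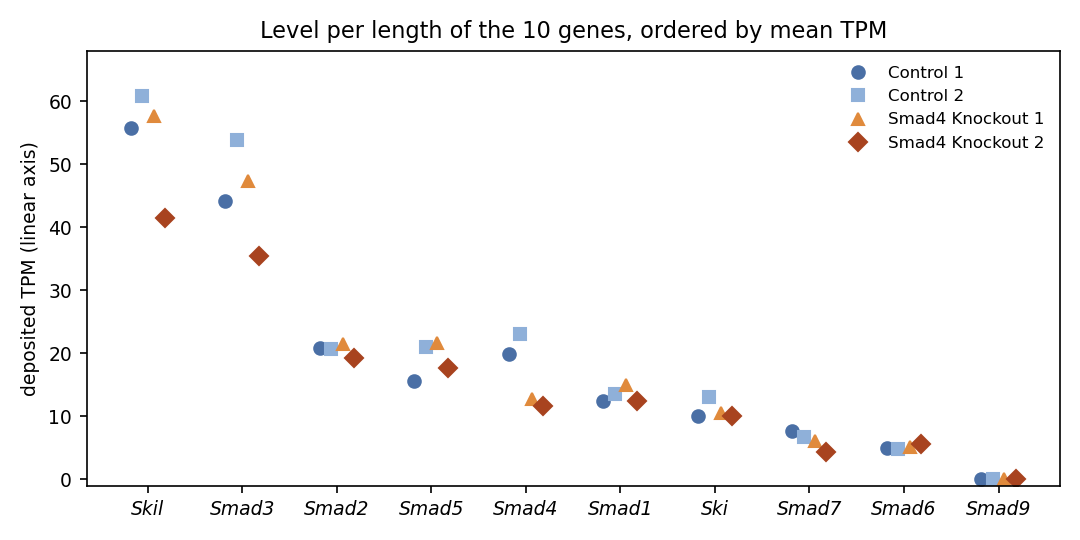
Deposited TPM (linear axis) of the 10 genes in each of the 4 libraries, ordered by mean; each point is 1 library. Skil and Smad3 are the highest, Smad9 is at 0 in all 4 libraries, and Smad4 is at 19.9 and 23.1 TPM in the control libraries versus 12.7 and 11.7 TPM in the knockout libraries.

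Smad4, the gene named in the knockout label, separated the genotypes. Its CPM (the count scaled to the TMM-adjusted library size) was 94.5 in Control 1 and 103 in Control 2, compared with 54.4 in Smad4 Knockout 1 and 52.9 in Smad4 Knockout 2. Both knockout libraries lay well below both controls, the nearest pair being 0.80 apart on the log2 scale, and the knockout mean was 54.2% of the control mean. The log2 fold change was -0.88 (SE 0.10, unadjusted 95% interval -1.14 to -0.63), so the fitted level was between 45.4% and 64.8% of the control level. Among all 18115 tested genes Smad4 had the smallest p in edgeR's quasi-likelihood test (unadjusted p = 0.000163), but after Benjamini-Hochberg adjustment over all genes edgeR's adjusted p was 0.677. DESeq2 called Smad4 lower (log2 fold change -0.88, adjusted p = 4.9e-08). With any 1 library left out the log2 fold change stayed between -0.94 and -0.82, and edgeR's adjusted p between 0.112 and 1. By DESeq2, but not by edgeR, Smad4 RNA was thus lower, and it was still present (4701 and 5128 counts) in the libraries labelled as its knockout. In bulk RNA, fewer cells of a type and less RNA per cell cannot be told apart.

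None of the tested genes beside Smad4 passed a test. Of the 5 tested genes on each side, a choice made after the values of Smad4 were known, 0 of 10 had an unadjusted p under 0.05 in edgeR, and DESeq2 called 0 with 0 at an unadjusted p under 0.05. Their median log2 fold change was -0.07, and that of the 476 tested genes of chromosome 18 was -0.02. Mex3c, an RNA-binding ubiquitin ligase that ends 0.04 Mb before Smad4 begins on the chromosome, measured 191 and 169 CPM in the control libraries versus 177 and 164 CPM in the knockout libraries. Elac1, a tRNA-processing enzyme that begins 0.03 Mb after Smad4 ends, was at 4.49 and 4.26 versus 4.51 and 4.96 CPM, and Me2, a mitochondrial malic enzyme, was at 117 and 90.8 versus 99.5 and 111 CPM. Mapk4, a low-level kinase gene at 1.55 and 2.23 versus 1.26 and 0.506 CPM, had the lowest value of the 10 (log2 fold change -1.10, SE 0.51).

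The transcript length implied by the values of Smad4 moved little. Dividing the deposited count by the deposited FPKM gives a length, set to 100% in the controls, that moves when long and short transcripts of a gene trade places. For Smad4 it was 99.8% and 100.2% in the control libraries versus 98.4% and 96.8% in the knockout libraries. Over 8855 genes with several transcripts the median absolute shift of the knockout mean was 0.63%. For 1 gene in 10 it was above 6.3%. Smad4, at a knockout mean of 97.6%, moved more than the median gene and stayed within that 6.3%. Both its knockouts lay below both controls. Skil moved most among the members, to 103.2% and 104.0% against 97.9% and 102.1% in the controls, and all 9 detected members stayed within 96.8% and 104.0%. No test was made on these lengths.

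Smad4 made up a smaller part of the SMAD transcript pool in the knockouts. Of the summed TPM of the 8 SMAD genes it took 15.8% and 16.1% in the control libraries versus 9.83% and 11.0% in the knockout libraries. Set against the summed TPM of the receptor-regulated SMAD genes, which encode its partners, Smad4 stood at 21.4% and 21.2% in the control libraries versus 12.1% and 13.8% in the knockout libraries. Neither ratio overlapped between the groups. Both have Smad4 as the numerator, so they restate its lower level and are no separate result. Smad2 and Smad3 together kept a share of 51.9% and 51.8% against 53.1% and 51.4%, and Smad1 and Smad5 together took 22.3% and 24.0% against 28.3% in each knockout. Shares of a whole depend on each other, so these describe the mix and are no sign of higher Smad1 or Smad5. The pool without Smad4 was 106 and 121 TPM in the controls and 117 and 94.8 TPM in the knockouts, which overlap.

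**Figure D2:**
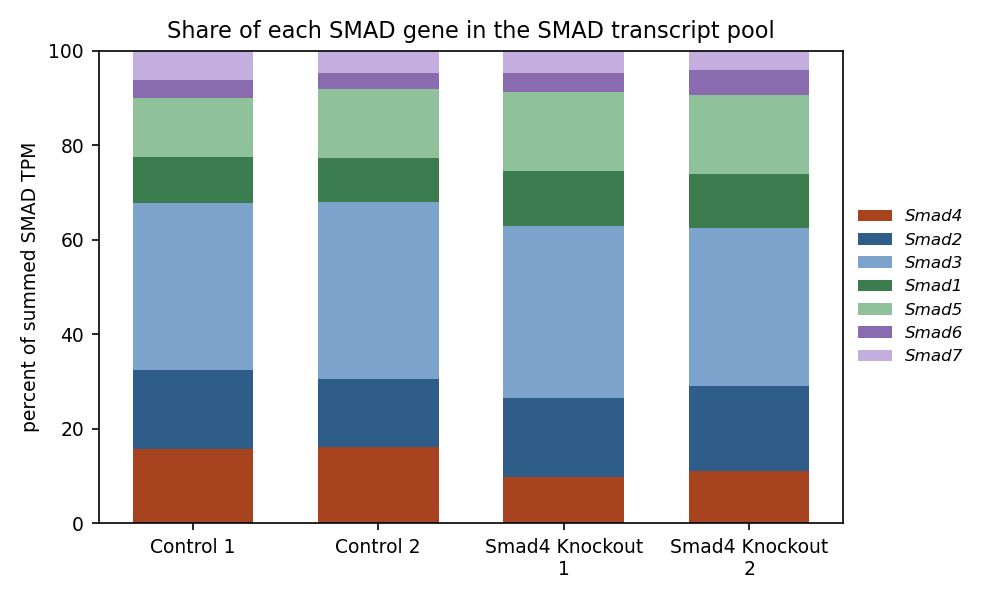
Share of each SMAD gene in the summed deposited TPM of the SMAD genes, in percent, with 1 stacked bar per library (Smad9, at 0, is not drawn). The Smad4 segment at the bottom is 15.8% and 16.1% in the control libraries versus 9.83% and 11.0% in the knockout libraries.

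Of the receptor-regulated SMAD genes of the TGF-beta and activin branch, Smad2 hardly varied. It measured 117 and 108 CPM in the control libraries versus 110 and 106 CPM in the knockout libraries, so the groups overlapped (log2 fold change -0.06, SE 0.10). The interval of Smad2 runs from 80.8% to 114% of the control level, and without Control 1 the sign turned (0.01). Smad3, the branch member that binds DNA directly in its main form, measured 144 and 164 CPM in the control libraries versus 141 and 113 CPM in the knockout libraries. The groups did not overlap, but Smad4 Knockout 1 lay only 0.03 below Control 1 on the log2 scale, and the lowest value was that of Smad4 Knockout 2. The log2 fold change of Smad3 was -0.28 (SE 0.14, interval -0.63 to 0.07, edgeR adjusted p = 0.832), and it became -0.12 with Smad4 Knockout 2 left out and -0.44 with Smad4 Knockout 1 left out. Smad2 was at 47.4% and 38.4% of the Smad3 TPM in the controls and at 45.5% and 54.3% in the knockouts.

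The BMP-branch genes showed no separation by genotype. Smad1 measured 23.9 and 24.5 CPM in the control libraries versus 26.4 and 23.4 CPM in the knockout libraries (log2 fold change 0.04, SE 0.13, interval 82.9% to 128% of the control level). Its highest and lowest values were both in knockout libraries. Smad5 measured 63.3 and 82.9 CPM in the control libraries versus 83.5 and 72.9 CPM in the knockout libraries (log2 fold change 0.10, SE 0.16, interval 81.7% to 140%). The controls of Smad5 differed by 0.39 on the log2 scale, more than any genotype difference in this branch, and the sign of the Smad5 difference turned without Control 1 (-0.08).

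Smad6, the inhibitor that acts mainly on BMP signals, measured 9.39 and 8.58 CPM in the control libraries versus 8.92 and 10.4 CPM in the knockout libraries. Smad4 Knockout 1 lay between the controls, so the groups overlapped, and the log2 fold change was 0.10 (SE 0.17, interval 80.0% to 144% of the control level, edgeR adjusted p = 0.985). On TPM the order was 4.93 and 4.80 against 5.12 and 5.58, with both knockouts just above both controls. The Smad6 promoter is shown because it holds the palindrome GTCTAGAC, the classical sequence bound by SMAD3 and SMAD4, across the transcription start that the promoter table uses. The stretch is chr9:64022056-64022179 on the minus strand (RefSeq table of build GRCm38.p6), read 5′ to 3′, with the palindrome in capitals at bases 117 to 124 of the 124. The table's start is base 64022059, which lies 26 bases inside the outermost gene boundary at 64022085, so the last 30 bases of the stretch are within the annotated gene.
Smad6 promoter: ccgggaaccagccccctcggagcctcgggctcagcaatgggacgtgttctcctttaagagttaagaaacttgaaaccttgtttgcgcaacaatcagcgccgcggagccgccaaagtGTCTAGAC
Promoter windows of 300 bases were at hand for 6 of the 10 genes, with 3 windows for Smad5. Smad2, Smad4, Smad7 and Skil had no window, so whether their promoters hold these sequences was not searched. GTCTAGAC, which reads the same on both strands, was found in the Smad6 window and in none of the windows of Smad1, Smad3, Smad5, Smad9 and Ski, and in 0.213% of all 32851 promoter windows (70 of them). The shorter GTCT, searched on both strands and contained in the palindrome on each strand, is in 88% of all windows, among them those of Smad3, Smad6, Smad9 and Smad5, and not in those of Smad1 and Ski. GGCGCC, a GC-rich sequence bound by BMP-branch SMAD proteins, was found in the windows of Smad9 and Ski, in 2 of the 3 windows of Smad5 and in 11.9% of all windows. These are matches of letters, and no binding was measured.

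Smad7, the inhibitor induced by both branches, was the member with the largest difference after Smad4. It measured 21.7 and 17.9 CPM in the control libraries versus 15.7 and 12.0 CPM in the knockout libraries. The groups did not overlap, by 0.19 on the log2 scale between Control 2 and Smad4 Knockout 1, while the controls differed by 0.28 and the knockouts by 0.39. The knockout mean was 70.0% of the control mean (log2 fold change -0.51, SE 0.19, interval -0.98 to -0.05). Smad7 was 1 of 2 members, with Smad4, at an unadjusted p under 0.05 (edgeR unadjusted p = 0.0354), and its edgeR adjusted p over all genes was 0.741. DESeq2 did not call it either (adjusted p = 0.524). The log2 fold change was -0.32 without Smad4 Knockout 2, -0.37 without Control 1 and -0.72 without Smad4 Knockout 1. The 2 inhibitors thus sat differently beside each other in each library: Smad6 was at 64.9% and 71.0% of the Smad7 TPM in the controls and at 83.5% and 130% in the knockouts, a ratio that did not overlap between the groups and that was not tested.

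The corepressor genes were abundant in both genotypes. Skil measured 229 and 245 CPM in the control libraries versus 228 and 178 CPM in the knockout libraries. Control 1 and Smad4 Knockout 1 were 0.01 apart on the log2 scale, so the lower mean of the knockouts came from Smad4 Knockout 2 (log2 fold change -0.23, SE 0.14, interval 67.1% to 109% of the control level, edgeR adjusted p = 0.873, and -0.04 without that library). Ski, the founding member of the family, measured 35.0 and 42.7 CPM in the control libraries versus 33.6 and 34.4 CPM in the knockout libraries. Here Control 2 was the library that stood off, and the log2 fold change of -0.19 (SE 0.14, interval 69.5% to 110%, edgeR adjusted p = 0.886) was -0.04 without it. Skil stood at 2.80 and 2.63 times the TPM of Smad4 in the controls and at 4.53 and 3.53 times in the knockouts. Its own TPM was 55.7 and 60.9 in the controls versus 57.7 and 41.4 in the knockouts, which overlap. The higher ratio thus restates the lower Smad4 and is no sign of higher Skil.

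**Figure D3:**
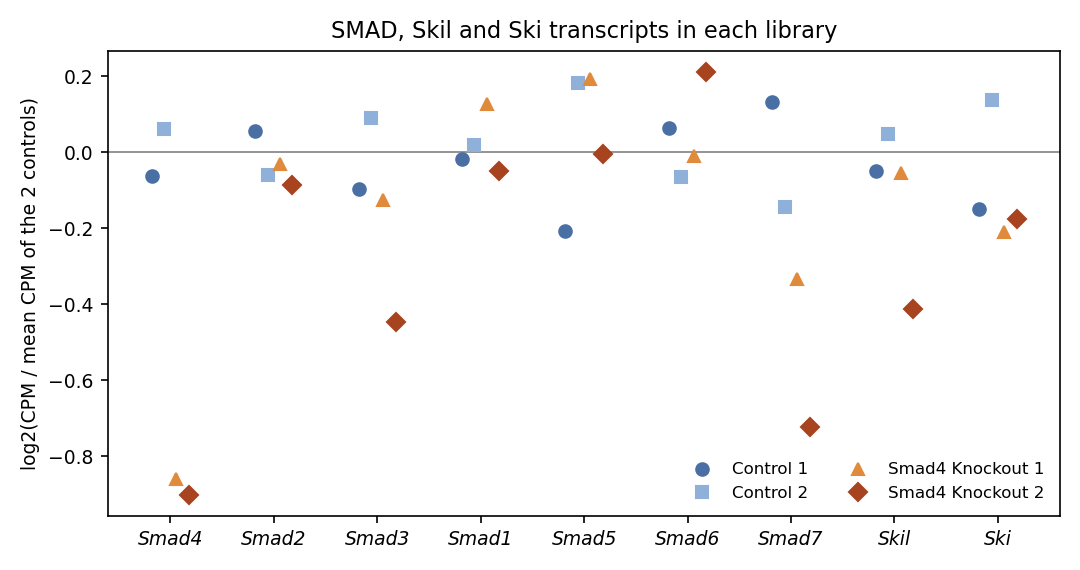
CPM of the 9 detected genes as log2 of the ratio to the mean of both controls, with 1 point per library. Both knockout points of Smad4 lie near -0.9; for Smad3, Smad7 and Skil Smad4 Knockout 2 lies below Smad4 Knockout 1, and for Smad1, Smad2, Smad5 and Smad6 the genotypes overlap.

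Counted over the 9 tested members, 6 had a log2 fold change below 0 and 3 above, with a median of -0.19 against -0.003 over all tested genes, and -0.12 without Smad4. With edgeR 0 members were called in either direction, as were 0% of all tested genes. At an unadjusted p under 0.05 edgeR had 2 members lower and 0 higher, against 3.04% of all tested genes lower and 3.33% higher. DESeq2 called 1 member lower, Smad4, and 0 higher, against 0.182% of 18657 genes lower and 0.525% higher. In 5 members (Smad3, Smad4, Smad7, Skil and Ski) both knockouts were below both controls in CPM, which is 55.6% of the 9 against 18.6% of all tested genes, and 0 members were above, against 18.2%. Smad4, the gene named in the knockout label, is among these 5 and among the 2 lower at an unadjusted p under 0.05. The count of 5 rests on small gaps. On the deposited TPM only Smad4 and Smad7 were lower without overlap (14.1% of all tested genes) and Smad6 was higher (23.2%). The median gene was 0.09 higher in Smad4 Knockout 1 on TPM than on CPM relative to the controls, and gaps of 0.01 to 0.03 are inside that shift. Smad4 Knockout 2 was the lowest library for 6 of the 9 members, against 27.2% of all tested genes. It is also the library with the highest mitochondrial share, whose part in these values was not tested.

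**Figure D4:**
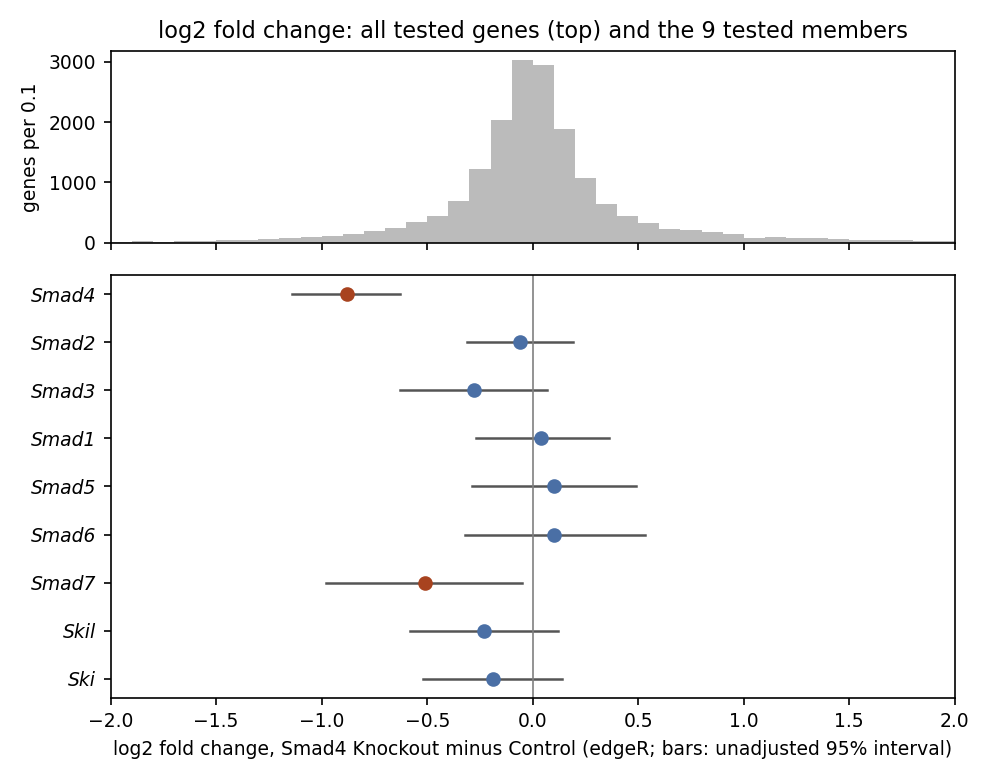
Top, log2 fold changes of all 18115 tested genes in bins of 0.1 (values beyond the axis are not drawn); bottom, the log2 fold change of each tested member with its unadjusted 95% interval. The intervals of Smad4 (-1.14 to -0.63) and Smad7 (-0.98 to -0.05), in red, are the ones that leave out 0.

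The genes with the pattern most like that of Smad4 were found by the root mean square difference of centred log2 CPM over the 4 libraries, among 10096 named protein-coding genes whose mean reached 5 CPM. They were Cda, a cytidine deaminase (0.064), Procr, the endothelial protein C receptor (0.094), Mycn, a transcription factor of the MYC family (0.095), Adamts7, a secreted metalloprotease (0.115), and Sema6b, a semaphorin (0.129). Cda measured 7.70 and 8.05 CPM in the control libraries versus 4.76 and 4.51 CPM in the knockout libraries. Mycn was at 6.90 and 6.76 versus 4.28 and 3.79 CPM. With edgeR none of the 5 was called (adjusted p = 0.677 for each, the same as for Smad4). As edgeR called 0 of all tested genes, this does not set them apart. Their DESeq2 results are not reported here. A likeness over 4 libraries is a description only.

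The other genes of the pathway were read in 7 lists, in which edgeR called 0 genes and DESeq2 called 5, all of them in the list of TGF-beta induced genes. Of all tested genes, 50.5% were below 0. At an unadjusted p under 0.05 edgeR had 3.04% of them lower and 3.33% higher, and DESeq2 called 0.182% of 18657 genes lower. Proteins that tag SMADs and receptors with ubiquitin, remove it, or take phosphate off SMADs had 18 of 18 genes tested, 7 below 0 and 11 above, with a median of 0.07. The most abundant were Stub1, a chaperone-linked ubiquitin ligase (146 and 135 versus 136 and 135 TPM), Usp9x, a deubiquitinase of Smad4 (88.4 and 108 versus 106 and 88.6 TPM), and Ppm1a, a phosphatase of Smad2 and Smad3 (55.4 and 50.6 versus 39.5 and 46.6 TPM). On CPM Ppm1a differed less, at 111 and 103 versus 100 and 98.9 (log2 fold change -0.10, SE 0.10). Ctdspl, a small C-terminal domain phosphatase, was the list's 1 gene at an unadjusted p under 0.05 and higher, at 38.6 and 36.6 versus 44.5 and 51.1 CPM (log2 fold change 0.35, SE 0.12).

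Anchors, adaptors and nuclear transport factors had 9 of 18 genes below 0 and a median of -0.01. Strap (209 and 229 versus 238 and 232 TPM), a receptor-binding adaptor, the importin Ipo7 (167 and 166 versus 180 and 167 TPM) and the exportin Xpo1 (134 and 150 versus 156 and 132 TPM) were the most abundant. Pmepa1, which keeps Smad2 and Smad3 from the receptor, was lower at 118 and 112 versus 86.1 and 55.4 CPM (-0.40 without Smad4 Knockout 2). Axin1, a scaffold better known from Wnt signalling, was lower at 125 and 131 versus 108 and 84.7 CPM (log2 fold change -0.41, SE 0.14, which became -0.23 once Smad4 Knockout 2 was left out). These were the list's 2 genes at an unadjusted p under 0.05.

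DNA-binding partners and coactivators had 16 of 21 tested genes below 0 and a median of -0.09, which ran from -0.29 to 0.12 as each library was left out. The 3 at an unadjusted p under 0.05 were members of the AP-1 family, all lower: Junb at 241 and 202 versus 184 and 159 CPM, Fos at 29.1 and 27.1 versus 20.9 and 21.8 CPM, and Fosl1 at 4.74 and 5.86 versus 3.26 and 2.95 CPM. The list's other JUN and ATF genes did not all go this way. Jun had a log2 fold change of -0.19, Atf2 of 0.07 and Atf3 of 0.16. Junb was also the most abundant of the list, followed by Atf2 (26.0 and 30.4 versus 32.5 and 28.1 TPM) and the acetyltransferase Kat2b (24.7 and 28.3 versus 30.4 and 27.1 TPM). Corepressors and partners of Ski and SnoN had 10 of 17 tested genes below 0 and a median of -0.03. Hdac2 (132 and 129 versus 128 and 128 TPM) and Hdac3 (111 and 102 versus 101 and 95.7 TPM), histone deacetylases of corepressor complexes, varied little. Tgif1, a homeodomain corepressor that binds SMAD complexes and is induced by TGF-beta, was the 1 gene at an unadjusted p under 0.05, at 159 and 151 versus 128 and 111 CPM (log2 fold change -0.38, SE 0.11).

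The receptors had 6 of 14 genes below 0 and a median of 0.10. That median ran from -0.06 to 0.19 as each library was left out. Tgfbr2 (86.3 and 100 versus 104 and 83.3 TPM), Bmpr1a (43.9 and 48.7 versus 49.6 and 43.7 TPM) and Tgfbr1 (27.2 and 28.4 versus 29.9 and 23.5 TPM) were the most abundant and overlapped between genotypes. Tgfbr3, a coreceptor, was the 1 gene at an unadjusted p under 0.05, at 0.643 and 0.734 versus 1.12 and 1.95 CPM. Genes known to be induced by TGF-beta, counted without the SMAD genes and Skil, had 14 of 16 tested genes below 0 and a median of -0.45, from -0.74 to -0.19 as each library was left out. At an unadjusted p under 0.05 there were 8 genes, all lower, among them Pmepa1, Tgif1, Bhlhe40, Ltbp2, Col7a1, Rhob and Pdgfb. The share of all tested genes below 0 was 50.5%, and 3.04% were lower at that threshold. DESeq2 called 5 of the 8, among them Ltbp2, Col7a1, Rhob and Pdgfb, against 0.182% of 18657 genes called lower. In each of the 8 Smad4 Knockout 2 was the lowest library. Pdgfb, a growth factor chain, was at 90.4 and 86.6 versus 63.7 and 40.1 CPM (log2 fold change -0.77, SE 0.22, which became -0.46 once Smad4 Knockout 2 was left out). Rhob, a small GTPase gene, was at 55.9 and 56.3 versus 38.3 and 34.6 CPM, and it kept -0.54 without Smad4 Knockout 2. Col7a1, a collagen of the basement membrane zone, was at 17.9 and 17.8 versus 10.6 and 4.80 CPM. Ltbp2, which binds the extracellular matrix, was at 4.48 and 4.02 versus 1.64 and 0.774 CPM, and Bhlhe40, a transcription repressor, at 125 and 116 versus 101 and 69.8 CPM. Tsc22d1 and Ccn2 were the most abundant with Tgif1, Tsc22d1 at 287 and 307 versus 324 and 348 TPM and Ccn2 at 219 and 262 versus 229 and 136 TPM. This list overlaps the ones above in Pmepa1 and Tgif1, and its lower level was known from earlier results of these data.

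Genes known to be induced by BMP had 6 of 11 tested genes below 0 and a median of 0.00 to within rounding. That median ran from -0.23 to 0.11 as each library was left out. Id2 (117 and 108 versus 122 and 130 TPM), Id1 (22.9 and 19.6 versus 19.6 and 14.0 TPM) and Msx1 (1.16 and 1.76 versus 1.41 and 1.54 TPM) were the most abundant. Dlx3, a homeobox gene, was the 1 gene at an unadjusted p under 0.05, lower at 1.63 and 2.36 versus 0.798 and 1.15 CPM. Beside the 2 lists, Smad7 (log2 fold change -0.51) lay near the median of the TGF-beta induced genes, Skil (-0.23) above it, and Smad6 (0.10) near that of the BMP induced genes. Tested genes ran from -1.82 to 1.23 in the TGF-beta list and from -1.04 to 1.37 in the BMP list. Nearness to a median thus places no member in a branch. Whether the lists differ from each other was not tested.

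**Figure D5:**
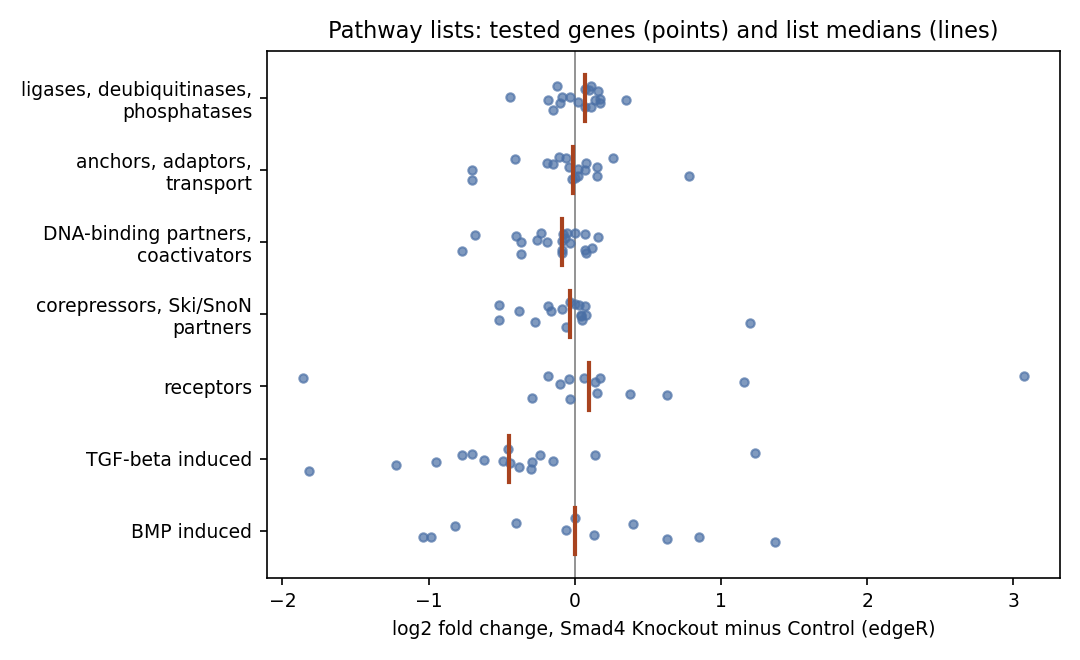
log2 fold change of each tested gene in the 7 pathway lists (points, spread vertically for sight) and the list medians (lines). Medians lie between -0.09 and 0.10 except for the TGF-beta induced genes, at -0.45.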

How the data were processed

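Per the labels' protocols, the library kit was TruSeq Stranded Total RNA Gold from Illumina. For alignment and assembly the submitters' processing notes list HISAT2 2.1.0 and StringTie 2.1.3b on mm10, besides bcl2fastq 2.20.0 and Trimmomatic. The sources used here do not give the counting step or strand setting. Each deposited table has, per the file headers, a count, FPKM and TPM for every gene. Since those notes list StringTie, the authors' whole-number counts were taken as estimated counts. The deposited TPM served for levels and the deposited FPKM for implied lengths, in genes with over 100 counts in every library. The columns of Control 2 carry its title with an added 2. A repeated FPKM column (1 in all) was not used, and 26 symbols turned into dates were restored by gene ID.

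Counts were tested with edgeR 4.0.16 in R 4.3.3 (TMM, filterByExpr with a minimum count of 10, quasi-likelihood F-test, genotype only, Benjamini-Hochberg over 18115 genes, adjusted p of 0.05), after a check on simulated counts. Depth ranged from 85649781 to 99845702 counts. From the common dispersion, replicates varied by 26.1%. With 2 against 2 libraries the smallest exact permutation p is 0.333, so that test was not run. Alternatives were RLE, no low-count filter, DESeq2 1.42.0, limma 3.58.1 on log2(TPM + 1) or log2(TPM + 0.1) where TPM reached 1 in 2 libraries, and leaving out each library; overlap on TPM was added after seeing the data. Members and lists were chosen with earlier results of these data known. Named genes are all members, the 3 most abundant genes of each list and each list gene at an unadjusted p under 0.05, and the 5 genes most like Smad4. The neighbours of Smad4, and Jun and Atf3, were added later. Some listed genes that count in the totals are not reported here by name.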

Additional observations from a re-analysis of the deposited data

How the results depend on the processing

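Over 9 alternatives, 76 of 81 member values kept their direction and stayed uncalled, 6 of 9 members never changed sign, and 4 values turned: without Smad4 Knockout 1 Smad1 was at -0.05 and Smad5 at -0.00, and without Control 1 Smad2 was at 0.01 and Smad5 at -0.08. Over the libraries left out Smad1 ran from -0.05 to 0.14, Smad2 from -0.12 to 0.01 and Smad5 from -0.08 to 0.30. Smad4 became called with DESeq2 alone (-0.88), which made the number of members called lower 1 instead of 0. DESeq2 called 98 genes higher and 34 lower of all tested. Over the libraries left out edgeR called 0 to 48 genes higher and 0 to 44 lower, most of them without Smad4 Knockout 1 (48 and 44) and 1 without Control 1; the cause was not tested. The Smad4 share of the SMAD pool was lower in the knockouts by a difference of -5.55 points, -7.17 on CPM, and -6.14 to -4.95 over the libraries left out. On TPM 2 members were lower without overlap instead of 5, and 1 higher instead of 0. No paired analysis was possible because the labels give no replicate numbers that the groups share. With 2 libraries a group, differences of the size seen in Smad1, Smad2, Smad3, Smad5, Smad6, Skil and Ski could not be told from 0. The unadjusted interval of Smad7 left out 0, but neither edgeR nor DESeq2 called this gene.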
